A study of Homo sapiens with 6 samples.

Results

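The genes described here are the 51 that carry out N-glycosylation from its sugar and lipid supply to the branching of finished glycans. They were chosen by symbol from a fixed list, matched through their Ensembl identifiers, and all 51 were found among the 60960 features of the deposited expression table. By role they fall into 12 genes of dolichol and mannose supply, 13 genes of the ALG steps that build the lipid-linked precursor, 8 subunits of the oligosaccharyltransferase, 10 trimming genes and 8 genes of branching and capping. Bulk RNA sequencing gave their expression in NCI-H1975, an established human non-small cell lung cancer line, in 3 libraries labelled siGFPT2 (a small interfering RNA against GFPT2) and 3 labelled siNC (a control small interfering RNA). The series asks which genes differ in expression between these groups. All 6 libraries come from the same line, and the labels name no siRNA sequence, dose or time for either group. The extraction text also mentions almonertinib, EGF and knockdown of EGFR, which no treatment label of these libraries carries. Separate cultures are not recorded for the 3 replicates of either group; p-values thus weigh the spread among these 6 libraries alone, which may be technical.

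N-glycans are built on the lipid carrier dolichol in the membrane of the endoplasmic reticulum (ER), sugar by sugar, and are then transferred whole to asparagines of new proteins by the oligosaccharyltransferase. Glucosidases and mannosidases trim the glycan while the protein folds, and Golgi enzymes rebuild it with new antennae. GFPT2 is one of the enzymes that start the hexosamine pathway, whose product UDP-N-acetylglucosamine (UDP-GlcNAc) is the donor for the opening ALG steps and for every MGAT branching enzyme. Surface receptors of epithelial cancers, EGFR among them, carry N-glycans.

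The libraries held 22717791, 27234880 and 22198121 counted fragments for siGFPT2 replicates 1, 2 and 3, and 22119118, 21899321 and 24493042 for siNC replicates 1, 2 and 3. GFPT2 itself, on chromosome 5 at 180300690 to 180353387 of GRCh38, stood at 8.94, 7.58 and 8.72 FPKM in the siGFPT2 libraries, against 10.1, 9.30 and 8.28 FPKM in the siNC libraries. FPKM divides a gene's fragments by its length and by the depth of the library, so levels of different genes can be set side by side. The groups overlapped in GFPT2, and the log2 fold change of siGFPT2 over siNC was -0.13 with a 95% interval of -0.43 to 0.17 (limma adjusted p = 0.9999; exact two-sided permutation p = 0.4, where the smallest possible with 3 against 3 is 0.1). The names siGFPT2 and siNC below therefore stand for the labels of the libraries, and not for a measured loss of GFPT2 mRNA. The epithelial markers EPCAM, CDH1, KRT7, KRT8, KRT18, KRT19 and NKX2-1 lay between 27.7 and 677 FPKM, while NAPSA stayed between 0.53 and 0.767 FPKM. Of the 5 leukocyte markers, PTPRC, CD3E and LYZ were at most 0.204 FPKM, CD14 lay at 1.87 to 3.20 FPKM and CD79A, a B cell gene, at 37.6 to 43.1 FPKM. Of the 5 fibroblast markers, COL1A1 lay at 5.74 to 8.23 FPKM and COL1A2 at 2.17 to 3.04 FPKM, while DCN, LUM and PDGFRB were at most 0.558 FPKM. The endothelial markers were at most 0.548 FPKM. Libraries labelled siGFPT2 replicate 2 and siNC replicate 3 stood apart from the other 4. They also held the lowest GFPT2 values of all, 7.58 and 8.28 FPKM, although their labels differ. The same 2 libraries were the lowest pair for 35.4% of all features tested. Labels were taken as given for every comparison below, and whether they match the libraries was not tested. In both, long genes of the list tended to read lower and short ones higher than in the rest. Across the 43 genes of the list that were tested, the correlation between a library's deviation from the mean of all 6 and the log2 exon length was -0.62 in siGFPT2 replicate 2 and -0.67 in siNC replicate 3, against 0.59 and 0.30 in siGFPT2 replicates 1 and 3 and 0.57 and 0.56 in siNC replicates 1 and 2. With the lengths behind the deposited FPKM they were -0.50 in siGFPT2 replicate 2 and -0.54 in siNC replicate 3, against 0.29 to 0.51 in the rest. Over all 12896 features they were weaker, at -0.29 in siGFPT2 replicate 2 and -0.28 in siNC replicate 3, against 0.18 to 0.27 in the rest. These correlations run over genes of a single library and are a description.

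None of the 51 genes differed between siGFPT2 and siNC beyond the spread between libraries. Of the 51, 43 reached a mean of 1 FPKM and were tested, and 0 passed an adjusted p of 0.05 in limma, nor did any of the 12896 features tested (0%). At an unadjusted p of 0.05, 0 of the 43 genes passed, against 84 of all features (0.651%), 42 of them higher and 42 lower in siGFPT2; with each library centred on its median feature that split was 31 and 59. Groups that did not overlap were found for 0 of the 43 genes, against 455 of all features (3.53%), which were higher in siGFPT2 for 2.16% and lower for 1.36%. The log2 fold changes of the 43 genes ran from -0.16 (DPM3) to 0.20 (UGGT2), with a median of 0.05, 30 above 0 and 13 below; after the same centring 18 lay above 0 and 25 below. Over all features the median was 0.03 and 61.4% lay above 0. The smallest unadjusted limma p of any of the 43 genes was 0.290, for MAGT1. The 95% interval left out a 2-fold change in either direction for 43 of the 43 genes (92.8% of all features) and a 1.5-fold change for 33 (61.1% of all features). In bulk RNA, a change in the share of cells that express a gene and a change in RNA per cell cannot be told apart.

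**Figure D1:**
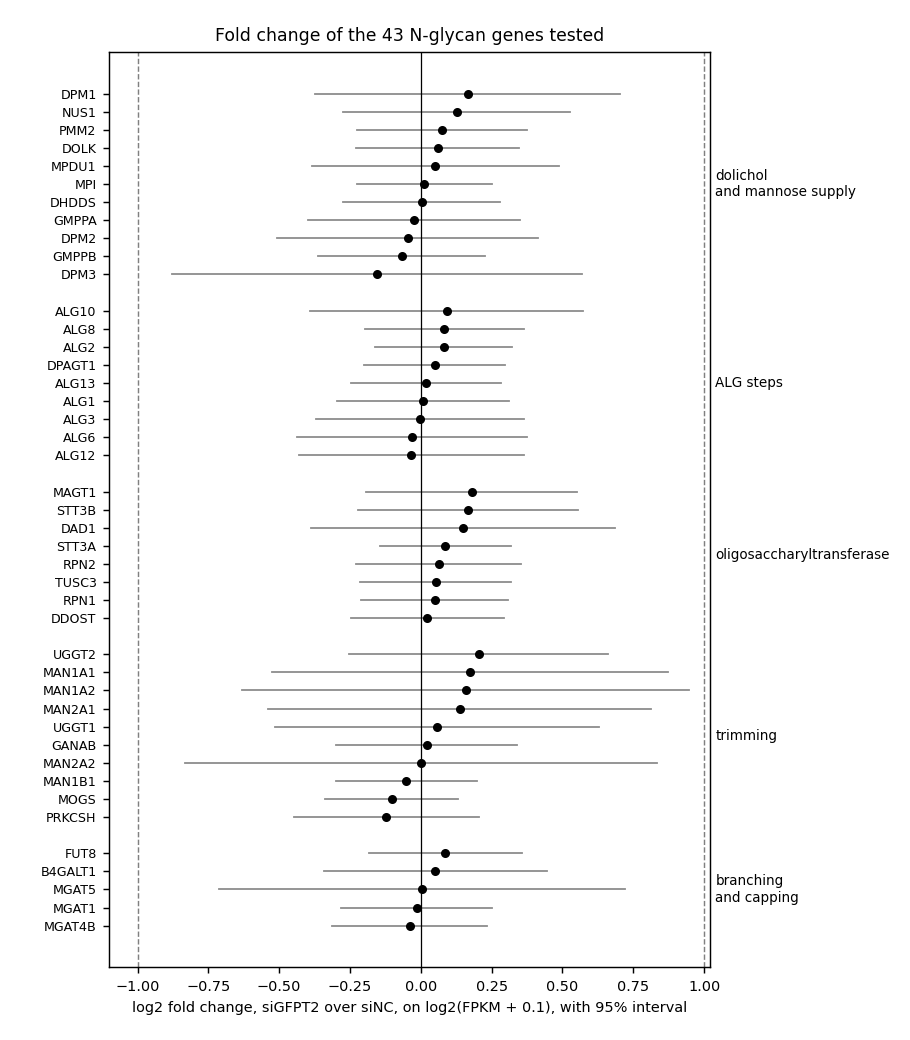
Log2 fold change of siGFPT2 over siNC for the 43 N-glycan genes tested, on the log2(FPKM + 0.1) scale, by role; points are estimates, bars are 95% intervals of the limma fit and dashed lines mark a 2-fold change. Every interval includes 0 and none reaches a 2-fold change; the estimates lie between -0.16 (DPM3) and 0.20 (UGGT2).

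The other 8 genes stayed under a mean of 1 FPKM: SRD5A3, ALG5, ALG9, ALG11, ALG14, MGAT2, MGAT3 and MGAT4A. With no filter on low values all 51 could be fitted, and 0 passed an unadjusted p of 0.05. Levels spanned 3 orders of magnitude, with means over the 6 libraries from 0.139 FPKM for ALG11 to 195 FPKM for DAD1. Of the 51 genes, 29 lay above 5.42 FPKM, the median of all features tested, and all 29 were among the 43 tested. The spread between libraries was small for most of the 43 tested: their median coefficient of variation over the 6 libraries was 9.76%, against 14.7% for all features tested. These sets were not matched for level, and the part of level in that difference was not tested.

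**Figure D2:**
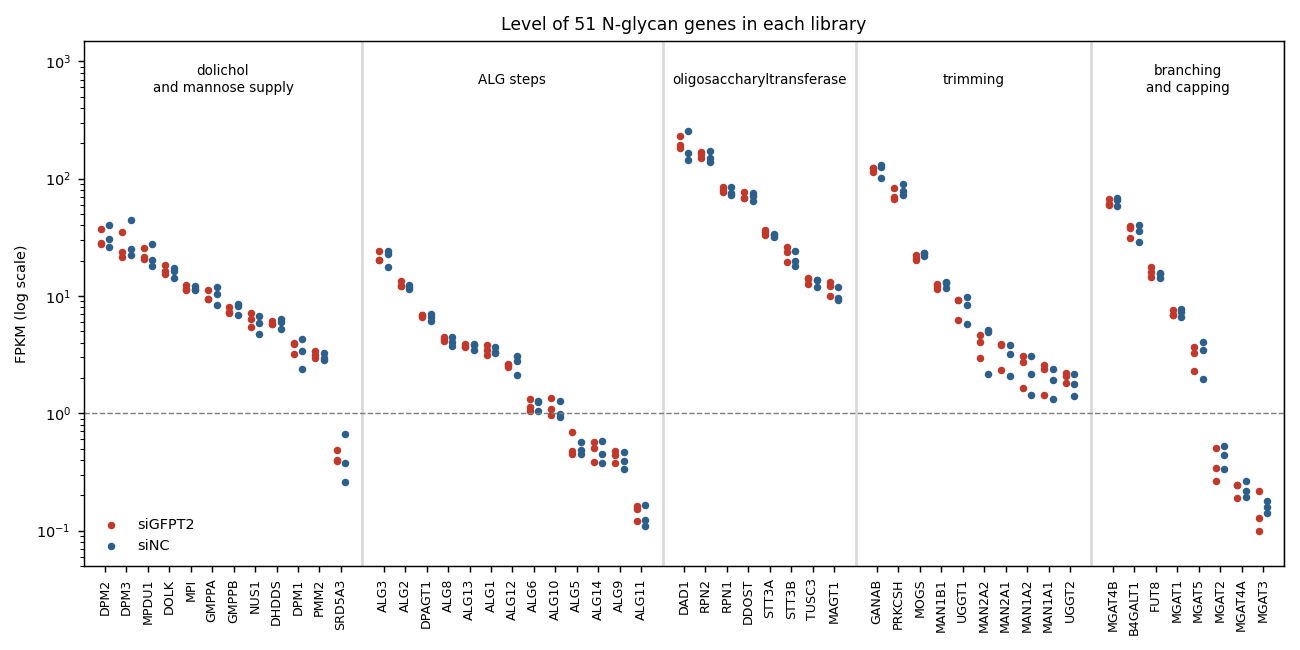
FPKM of each of the 51 genes in each library on a log axis, grouped by role and ordered by mean within a role; red points are siGFPT2 libraries, drawn left of the blue siNC libraries, and the dashed line marks 1 FPKM, the minimum mean for testing. Oligosaccharyltransferase subunits sit highest, with a median of 52.5 FPKM, and the ALG steps lowest, with a median of 2.62 FPKM.

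Dolichol and mannose supply had a median level of 8.91 FPKM over its 12 genes. Of the 11 tested, 0 passed the limma test, 7 log2 fold changes lay above 0 and 4 below, and their median was 0.01. With 1 library left out that median ran from -0.03 without siGFPT2 replicate 2 to 0.12 without siNC replicate 3. The highest deposited level belonged to DPM2 (chromosome 9, 127935099 to 127938484), a small membrane subunit of dolichol-phosphate-mannose synthase. DPM2 stood at 28.4, 36.9 and 27.7 FPKM in siGFPT2 libraries, against 30.5, 26.2 and 40.2 FPKM in siNC libraries. The highest value of each group came from siGFPT2 replicate 2 and siNC replicate 3, and the groups overlapped fully. DPM3 (chromosome 1, 155139891 to 155140595), which anchors the catalytic subunit in the membrane, had the lowest fold change of the supply genes and of all 43. DPM3 read 21.3, 35.4 and 23.5 FPKM in siGFPT2 libraries, against 25.0, 22.2 and 44.2 FPKM in siNC libraries, a log2 fold change of -0.16 with an interval of -0.88 to 0.57 (limma adjusted p = 0.9999). Its value in siNC replicate 3 was 2.07 times that in siGFPT2 replicate 1, and without siNC replicate 3 the log2 fold change was 0.15 with an interval of -0.37 to 0.66. With each library's slope on gene length as a covariate, DPM3 was the single gene of the 43 under an unadjusted p of 0.05. Its log2 fold change was then -0.16 with an interval of -0.30 to -0.02 (limma adjusted p = 0.694). In that fit 5.46% of all features were under 0.05, 480 of them higher and 224 lower in siGFPT2.

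DPM1 (chromosome 20, 50934867 to 50958555), the catalytic subunit that makes dolichol-phosphate-mannose, had the highest fold change of the supply genes. It read 3.22, 3.92 and 3.96 FPKM in siGFPT2 libraries, against 2.37, 3.42 and 4.31 FPKM in siNC libraries, a log2 fold change of 0.17 with an interval of -0.37 to 0.70 (limma adjusted p = 0.9999). The siNC libraries held both the lowest and the highest value. As deposited, DPM1 averaged 3.53 FPKM, far under its partners DPM2 (31.7 FPKM) and DPM3 (28.6 FPKM). The gene length that turns its FPKM into whole fragments was 9276 bases, 7.69 times its exon length of 1207 bases in GENCODE 29. With the GENCODE length the 3 subunits came to 27.2 FPKM for DPM1, 25.3 FPKM for DPM2 and 28.6 FPKM for DPM3. The fragments stay those counted with the deposited length. Any that fall outside the GENCODE exons would make values with the GENCODE length too high, here and below. The choice of length scales all 6 libraries alike and leaves the fold change between groups as it is, apart from the pseudocount.

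MPDU1, which lets dolichol-linked mannose and glucose be used on the luminal side, averaged 22.3 FPKM. It was followed by DOLK, the dolichol kinase, at 16.3 FPKM, and by MPI, which interconverts fructose and mannose phosphates, at 11.7 FPKM. MPI was among the steadiest of all, between 11.2 and 12.4 FPKM in every library. GMPPA and GMPPB, the regulatory and catalytic subunits of GDP-mannose pyrophosphorylase, averaged 10.1 and 7.71 FPKM. GMPPA stood at 9.36, 11.2 and 9.44 FPKM in siGFPT2 libraries, against 10.5, 8.38 and 11.8 FPKM in siNC libraries. GMPPB stood at 7.17, 8.06 and 7.32 FPKM in siGFPT2 libraries, against 8.57, 6.95 and 8.20 FPKM in siNC libraries. Both overlapped between groups, and GMPPA exceeded GMPPB in 6 of 6 libraries. The fragments given to GMPPB are uncertain, since 54.1% of its exon bases in GENCODE 29 also belong to AMIGO3, listed at 0 FPKM in every library, or to RNF123 on the other strand. PMM2, the phosphomannomutase whose loss causes the most common congenital disorder of glycosylation, averaged 3.09 FPKM as deposited and 5.09 FPKM with the GENCODE length. SRD5A3 (chromosome 4, 55346109 to 55373096), a reductase of dolichol synthesis, was the lowest supply gene. It read 0.394, 0.486 and 0.398 FPKM in siGFPT2 libraries, against 0.258, 0.379 and 0.668 FPKM in siNC libraries, on 44 to 126 fragments. The siNC values enclosed the siGFPT2 values.

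The subunits DHDDS and NUS1 together form the cis-prenyltransferase that builds the dolichol chain, and they stood at nearly the same level. DHDDS averaged 5.86 ± 0.205 FPKM in siGFPT2 libraries and 5.86 ± 0.548 FPKM in siNC libraries, and NUS1 averaged 6.31 ± 0.836 FPKM in siGFPT2 libraries and 5.79 ± 0.989 FPKM in siNC libraries (SD, n = 3 each). NUS1 was the higher of the pair in 3 of 6 libraries, so their order did not hold beyond the spread. The promoter of DHDDS (RefSeq, GRCh38.p14, chr1:26432071-26432370, plus strand, from 250 bases before to 50 after the start) is shown because it carries the core of the unfolded protein response element, TGACGTG, on both strands. A search of both strands for TGACGTG found it in 2 of the 43 genes with a promoter in the RefSeq table, DHDDS and MGAT1, in 3.34% of the promoters of tested features and in 1.97% of all 35116 promoters. The 43 genes searched are not the 43 tested: the table gave no promoter for ALG10, MAN1A2, MGAT3, MGAT4A, MOGS, RPN1, STT3B and TUSC3. Capitals mark both matches, which start 25 and 6 bases before the start site. A match describes the letters and is not evidence of binding.
DHDDS: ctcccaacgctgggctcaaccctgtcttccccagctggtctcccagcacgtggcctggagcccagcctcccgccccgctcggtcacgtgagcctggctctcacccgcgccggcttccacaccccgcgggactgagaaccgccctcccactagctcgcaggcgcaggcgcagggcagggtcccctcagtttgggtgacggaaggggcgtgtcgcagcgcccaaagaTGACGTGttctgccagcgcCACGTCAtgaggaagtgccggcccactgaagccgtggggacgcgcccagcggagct

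The ALG steps were the lowest of the roles, with a median level of 2.62 FPKM over 13 genes, and 4 of the 13 were under 1 FPKM. Of the 9 tested, 0 passed the limma test, 6 log2 fold changes lay above 0 and 3 below, and their median was 0.02. All 9 intervals left out a 1.5-fold change, as did those of 33 of the 43 genes and 61.1% of all features. DPAGT1 uses UDP-GlcNAc to start the precursor on dolichol phosphate. It read 6.92, 6.66 and 6.93 FPKM in siGFPT2 libraries, against 7.03, 6.64 and 6.17 FPKM in siNC libraries, a log2 fold change of 0.05 with an interval of -0.20 to 0.30 (limma adjusted p = 0.9999). ALG13, the catalytic subunit of the next GlcNAc transferase, averaged 3.74 FPKM, while ALG14, its membrane anchor, averaged 0.477 FPKM. The catalytic subunit was thus above its anchor in 6 of 6 libraries, with ALG13 between 3.48 and 3.88 FPKM and ALG14 between 0.379 and 0.576 FPKM.

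The mannosyltransferases of the cytosolic side differed widely. ALG2 averaged 12.3 FPKM and ALG1 3.45 FPKM, while ALG11 (chromosome 13, 52012398 to 52032171) was the lowest of all 51 genes. ALG11 read 0.152, 0.122 and 0.161 FPKM in siGFPT2 libraries, against 0.110, 0.166 and 0.122 FPKM in siNC libraries, on 38 to 57 fragments. Its groups overlapped, and its level is uncertain because 39.7% of its exon bases are shared with UTP14C on the same strand, which was listed at 0 FPKM in every library. ALG3 (chromosome 3, 184242301 to 184249548), the opening mannosyltransferase of the luminal side, was the highest ALG gene. It read 20.1, 24.0 and 20.2 FPKM in siGFPT2 libraries, against 23.0, 17.6 and 24.1 FPKM in siNC libraries, and the groups overlapped. ALG9 and ALG12, which add the remaining luminal mannoses, averaged 0.415 and 2.62 FPKM. ALG3 therefore stood above ALG12, its later partner, in every library, with the lowest ALG3 value at 17.6 FPKM and the highest ALG12 value at 3.10 FPKM. The levels of ALG9, ALG1 and ALG12 are uncertain as well. ALG9 shares 24.4% of its exon bases with AP001781.2 on the same strand, listed at 0 FPKM in every library. ALG1 shares 22.2% with NAGPA-AS1 on the same strand, also listed at 0 FPKM. Genes on the other strand overlap 42.1% of the exon bases of ALG12.

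ALG12 (chromosome 22, 49900229 to 49918458) had the lowest fold change of the 9 ALG genes tested. It read 2.63, 2.50 and 2.58 FPKM in siGFPT2 libraries, against 3.10, 2.78 and 2.11 FPKM in siNC libraries, a log2 fold change of -0.03 with an interval of -0.43 to 0.37 (limma adjusted p = 0.9999). The siGFPT2 values lay inside the range of the siNC values. Its promoter is shown because it was the single one of the 43 promoters searched to carry the ER stress response element in its full form, CCAAT and CCACG separated by any 9 bases, which 0.164% of the promoters of tested features and 27 of all 35116 RefSeq promoters (0.0769%) hold on either strand. The related form, ATTGG and CCACG separated by 1 base, was in 0 of the 43. Capitals mark CCAAT and CCACG, which begin 134 bases before the start site in the window chr22:49918389-49918688 on the minus strand (RefSeq, GRCh38.p14). CRELD2, an ER stress gene on the other strand whose exons share 168 bases with those of ALG12, read 6.54, 7.96 and 5.99 FPKM in siGFPT2 libraries, against 6.95, 6.17 and 9.25 FPKM in siNC libraries.
ALG12: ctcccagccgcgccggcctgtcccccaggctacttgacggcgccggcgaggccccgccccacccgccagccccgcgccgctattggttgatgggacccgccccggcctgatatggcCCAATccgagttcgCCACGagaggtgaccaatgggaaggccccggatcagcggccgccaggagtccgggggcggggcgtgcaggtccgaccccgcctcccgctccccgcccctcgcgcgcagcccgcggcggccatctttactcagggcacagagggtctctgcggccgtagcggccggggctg

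The glucose-adding steps were low. ALG8 averaged 4.20 FPKM, ALG6 1.18 FPKM and ALG10, which adds the last glucose, 1.10 FPKM. ALG6 and ALG10 kept their order in 4 of 6 libraries only. ALG10 (chromosome 12, 34022281 to 34029694) had the highest fold change of the 9 ALG genes tested, with 1.09, 0.970 and 1.36 FPKM in siGFPT2 libraries, against 0.936, 1.26 and 0.991 FPKM in siNC libraries, a log2 fold change of 0.09 with an interval of -0.39 to 0.57 (limma adjusted p = 0.9999). Its fragments are uncertain, since ALG10B is a near-identical copy and 42.2% of its exon bases overlap an antisense gene listed at 0 FPKM. ALG10B read 0.907, 0.649 and 0.844 FPKM in siGFPT2 libraries, against 0.542, 0.900 and 0.577 FPKM in siNC libraries. ALG5, which makes dolichol-phosphate-glucose, averaged 0.521 FPKM as deposited, where the length behind its FPKM was 6.30 times the GENCODE exon length of 2194 bases. With the GENCODE length ALG5 came to 3.29 FPKM, ALG8 to 11.5 FPKM and ALG1 to 8.06 FPKM. Low deposited levels of these 3 genes thus depend on the gene length chosen. ALG5 rested on 138 to 260 fragments per library, as recovered with the deposited length.

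**Figure D3:**
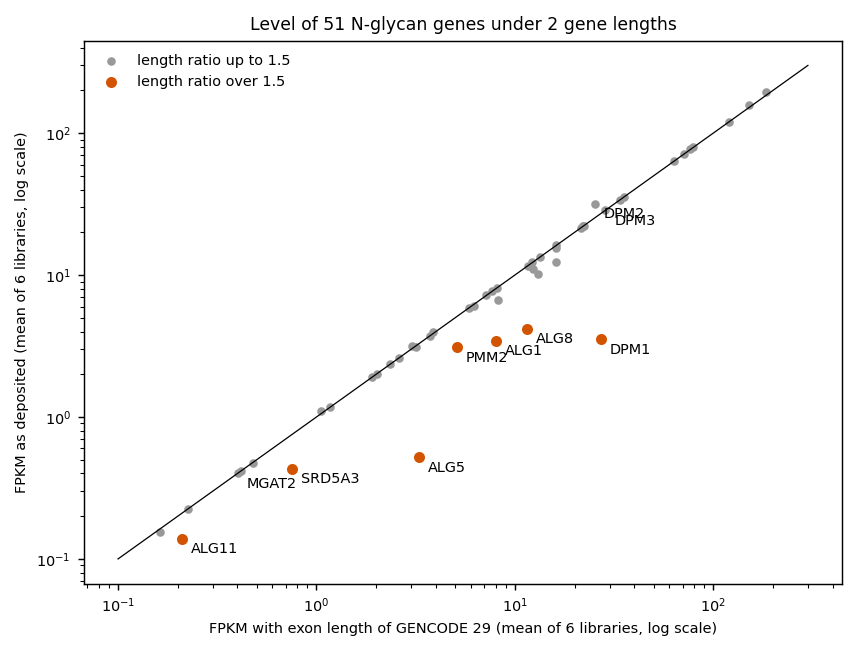
Mean FPKM of the 51 genes over the 6 libraries as deposited (vertical, log axis) against the value with the exon length of GENCODE 29 (horizontal, log axis); the line marks equality and orange points are the 7 genes whose deposited length is over 1.5 times the GENCODE length. DPM1 moves furthest, to 27.2 FPKM with the GENCODE length, against 3.53 FPKM as deposited. Both axes use the same fragments, so any that fall outside the GENCODE exons raise the horizontal value.

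The 8 oligosaccharyltransferase subunits listed here were the most abundant group, between 11.0 and 195 FPKM with a median of 52.5 FPKM. In the wider list described below, 4 other subunits had a median of 13.3 FPKM, from 1.43 FPKM (KRTCAP2) to 212 FPKM (OST4). None of the 8 passed the limma test. All 8 log2 fold changes lay above 0, with a median of 0.08 and a range of 0.02 to 0.18, and every interval included 0. Over all features 61.4% lay above 0, with a median of 0.03. Of the 4 other subunits, 3 lay above 0 and 1 below, which was OST4 at -0.03 with an interval of -0.45 to 0.40. Once each library was centred on its median feature, 5 of the 8 lay above 0 and 3 below, and with 1 library left out between 5 and 8 lay above 0. DAD1 (chromosome 14, 22564905 to 22589269), a small subunit present in every form of the enzyme, was the highest of all 51 genes. DAD1 read 183, 231 and 195 FPKM in siGFPT2 libraries, against 144, 166 and 253 FPKM in siNC libraries, a log2 fold change of 0.15 with an interval of -0.39 to 0.69 (limma adjusted p = 0.9999). The highest value of each group came from siGFPT2 replicate 2 and siNC replicate 3, and the value of siNC replicate 3 lay above all siGFPT2 values. Without siNC replicate 3 the log2 fold change of DAD1 was 0.39 with an interval of 0.05 to 0.72 (limma adjusted p = 0.810). In that fit 4.03% of all features were under an unadjusted p of 0.05, and 421 of these 520 were higher in siGFPT2. Without that library and siGFPT2 replicate 2 the log2 fold change of DAD1 was 0.29 with an interval of 0.06 to 0.52 (limma adjusted p = 0.720). There 5.82% of all features were under 0.05, and 514 of these 751 were higher in siGFPT2. Without siNC replicate 1, which held the lowest value, the log2 fold change of DAD1 was -0.02 with an interval of -0.59 to 0.55.

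The DAD1 promoter (RefSeq, GRCh38.p14, chr14:22589175-22589474, minus strand) is shown for the most abundant gene of the set. Capitals mark the palindromic motif of the factor NRF1, GCGCA followed directly by its reverse complement TGCGC, which starts 17 bases before the start site and was found in 3 of the 43 promoters (ALG6, DAD1 and FUT8), in 2.76% of the promoters of tested features and in 1.24% of all promoters. The letters alone do not show that the factor binds there.
DAD1: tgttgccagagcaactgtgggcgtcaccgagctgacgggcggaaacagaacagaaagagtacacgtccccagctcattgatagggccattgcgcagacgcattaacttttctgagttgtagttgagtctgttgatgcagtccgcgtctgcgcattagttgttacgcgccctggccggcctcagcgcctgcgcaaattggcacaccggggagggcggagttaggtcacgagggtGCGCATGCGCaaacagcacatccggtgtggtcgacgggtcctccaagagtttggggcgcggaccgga

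RPN2 and RPN1, the ribophorins, averaged 157 and 79.4 FPKM. DDOST, another shared subunit, averaged 70.9 FPKM. DAD1 exceeded RPN2 in 5 of 6 libraries, and the order RPN2, RPN1, DDOST held in 6 of 6. DDOST (chromosome 1, 20651767 to 20661544) had the fold change closest to 0 of the 8 subunits listed here. It read 68.7, 76.8 and 68.7 FPKM in siGFPT2 libraries, against 71.3, 64.0 and 75.8 FPKM in siNC libraries, a log2 fold change of 0.02 with an interval of -0.25 to 0.29.

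STT3A and STT3B are alternative catalytic subunits, STT3A acting as proteins enter the ER and STT3B mainly on sites that STT3A skips. STT3A (chromosome 11, 125591712 to 125625215) read 35.3, 33.1 and 36.8 FPKM in siGFPT2 libraries, against 33.0, 33.9 and 32.0 FPKM in siNC libraries. STT3B (chromosome 3, 31532638 to 31637622) read 23.8, 19.6 and 26.3 FPKM in siGFPT2 libraries, against 20.0, 24.2 and 18.0 FPKM in siNC libraries. STT3A exceeded STT3B in 6 of 6 libraries. Log2 fold changes were 0.09 for STT3A (interval -0.14 to 0.32) and 0.17 for STT3B (interval -0.22 to 0.55). MAGT1 and TUSC3 are the oxidoreductase subunits that serve STT3B, and either can fill the place. MAGT1 (chromosome X, 77826364 to 77895593) was the lowest in level and the highest in fold change of the 8 subunits listed here. It read 12.1, 9.90 and 13.1 FPKM in siGFPT2 libraries, against 9.57, 12.0 and 9.31 FPKM in siNC libraries, a log2 fold change of 0.18 with an interval of -0.19 to 0.55 (limma adjusted p = 0.9999). TUSC3 read 12.6, 13.9 and 14.3 FPKM in siGFPT2 libraries, against 12.0, 13.6 and 13.8 FPKM in siNC libraries. The groups overlapped for both genes.

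Trimming spanned from abundant glucosidases to scarce mannosidases, with a median of 6.04 FPKM over 10 genes. Of these 10, all tested, 0 passed the limma test, 6 log2 fold changes lay above 0 and 4 below, and their median was 0.04. That median depended on which library was left out, and ran from -0.09 without siNC replicate 3, with 1 of 10 above 0, to 0.21 without siGFPT2 replicate 2, with 7 of 10 above 0. It was -0.01 when siGFPT2 replicate 1 or siGFPT2 replicate 3 was dropped, and also when both libraries that stand apart were. Dropping siNC replicate 2 gave 0.20 and dropping siNC replicate 1 gave 0.14. GANAB (chromosome 11, 62624826 to 62646726), the catalytic subunit of glucosidase II, was the highest trimming gene. GANAB read 124, 113 and 124 FPKM in siGFPT2 libraries, against 132, 125 and 101 FPKM in siNC libraries, and the groups overlapped. PRKCSH (chromosome 19, 11435288 to 11450968), its partner subunit, had the lowest fold change of the trimming genes. It read 69.9, 83.8 and 66.7 FPKM in siGFPT2 libraries, against 78.1, 72.3 and 89.3 FPKM in siNC libraries, a log2 fold change of -0.12 with an interval of -0.45 to 0.20 (limma adjusted p = 0.9999). Of all libraries, siGFPT2 replicate 2 and siNC replicate 3 were the lowest for GANAB and the highest for PRKCSH. MOGS, glucosidase I, which removes the outermost glucose, averaged 21.2 ± 1.11 FPKM in siGFPT2 libraries and 22.8 ± 0.886 FPKM in siNC libraries (SD, n = 3 each), a log2 fold change of -0.10 with an interval of -0.34 to 0.13.

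UGGT1 and UGGT2 put a glucose back on misfolded glycoproteins so that they stay with the lectin chaperones. UGGT1 read 9.18, 6.28 and 9.25 FPKM in siGFPT2 libraries, against 8.35, 9.79 and 5.77 FPKM in siNC libraries. UGGT2 (chromosome 13, 95801580 to 96053482), the lowest trimming gene, had the highest fold change of all 43 genes. It read 2.08, 1.82 and 2.20 FPKM in siGFPT2 libraries, against 1.76, 2.17 and 1.39 FPKM in siNC libraries, a log2 fold change of 0.20 with an interval of -0.25 to 0.66 (limma adjusted p = 0.9999). The groups overlapped for both, and the lowest values came from siNC replicate 3.

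The Golgi mannosidases were low and varied widely between libraries. MAN1B1, an ER mannosidase linked to the disposal of misfolded glycoproteins, was higher and steadier, at 12.1 ± 0.639 FPKM in siGFPT2 libraries and 12.6 ± 0.764 FPKM in siNC libraries (SD, n = 3 each). Golgi mannosidase I is encoded by MAN1A1 and MAN1A2 among others. MAN1A1 read 2.60, 1.43 and 2.41 FPKM in siGFPT2 libraries, against 1.91, 2.39 and 1.33 FPKM in siNC libraries. MAN1A2 read 2.73, 1.63 and 3.07 FPKM in siGFPT2 libraries, against 2.17, 3.08 and 1.44 FPKM in siNC libraries. Both were lowest in siGFPT2 replicate 2 and siNC replicate 3, and the groups overlapped. Golgi mannosidase II, which opens the way to complex glycans, is encoded by MAN2A1 and MAN2A2. MAN2A1 read 3.81, 2.32 and 3.87 FPKM in siGFPT2 libraries, against 3.22, 3.79 and 2.08 FPKM in siNC libraries. MAN2A2 read 4.62, 2.96 and 4.07 FPKM in siGFPT2 libraries, against 5.13, 4.96 and 2.17 FPKM in siNC libraries. The same libraries were again the lowest, with MAN2A2 in siNC replicate 1 at 2.36 times its value in siNC replicate 3. Coefficients of variation over the 6 libraries were 26.8% for MAN1A1, 30.4% for MAN1A2, 25.1% for MAN2A1 and 29.7% for MAN2A2, against 5.49% for MAN1B1.

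Branching and capping had a median level of 5.15 FPKM over 8 genes, with a spread from 0.154 to 63.2 FPKM. Of the 5 tested, 0 passed the limma test, 3 log2 fold changes lay above 0 and 2 below, with a median of 0.0035. With 1 library left out that median ran from -0.01 without siGFPT2 replicate 1 to 0.16 without siGFPT2 replicate 2. MGAT1 adds the GlcNAc that opens hybrid and complex glycans. It read 6.90, 7.66 and 6.92 FPKM in siGFPT2 libraries, against 7.72, 6.68 and 7.31 FPKM in siNC libraries. MGAT2, which acts next, was at 0.263, 0.342 and 0.504 FPKM in siGFPT2 libraries, against 0.337, 0.528 and 0.441 FPKM in siNC libraries. MGAT2 rested on 16 to 31 fragments per library, and 91.9% of its exon bases overlap an antisense gene that was listed at 0 FPKM. Strandedness of the libraries is not stated in the labels, so reads of these overlapping genes cannot be told apart and the MGAT2 level is uncertain.

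MGAT4B (chromosome 5, 179797597 to 179806952), which adds an antenna to the core, was the highest of this role in level and, among the 5 tested, the lowest in fold change. It read 60.4, 67.1 and 59.5 FPKM in siGFPT2 libraries, against 65.7, 57.9 and 68.8 FPKM in siNC libraries, a log2 fold change of -0.04 with an interval of -0.31 to 0.23 (limma adjusted p = 0.9999). Its paralog MGAT4A was at 0.247, 0.191 and 0.243 FPKM in siGFPT2 libraries, against 0.263, 0.218 and 0.195 FPKM in siNC libraries. MGAT4B therefore supplied nearly all transcripts of this pair in all 6 libraries. MGAT3 (chromosome 22, 39457344 to 39492194), which adds the bisecting GlcNAc, was the lowest of this role, at 0.0988, 0.127 and 0.218 FPKM in siGFPT2 libraries, against 0.180, 0.158 and 0.141 FPKM in siNC libraries, on 13 to 28 fragments. MGAT5, which makes the branch long studied in invasive cancers, read 3.29, 2.27 and 3.65 FPKM in siGFPT2 libraries, against 3.44, 4.03 and 1.96 FPKM in siNC libraries. Its log2 fold change was 0.00 with an interval of -0.71 to 0.72, among the widest of the 43, and siGFPT2 replicate 2 and siNC replicate 3 were again lowest. FUT8 (chromosome 14, 65410592 to 65744121), the core fucosyltransferase, had the highest fold change of this role, with 16.2, 14.4 and 17.5 FPKM in siGFPT2 libraries, against 15.3, 15.6 and 14.3 FPKM in siNC libraries, a log2 fold change of 0.09 with an interval of -0.18 to 0.36. B4GALT1, which caps antennae with galactose, averaged 36.1 ± 4.40 FPKM in siGFPT2 libraries and 35.1 ± 6.07 FPKM in siNC libraries (SD, n = 3 each).

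Levels next to each other in the order mostly kept their order across libraries on the deposited lengths. Within branching and capping, all 7 adjacent pairs kept their order in 6 of 6 libraries. The same held for 8 of 9 adjacent pairs in trimming, 6 of 7 in the oligosaccharyltransferase, 8 of 12 among the ALG steps and 7 of 11 in supply. MAN1A1 and UGGT2 were the pair of trimming genes that did not keep their order, with MAN1A1 higher in 4 of 6 libraries. An error in a gene's length is the same in every library, so these counts do not bear on it. With the GENCODE lengths as well, 7 of 7 pairs of branching and capping, 8 of 9 of trimming, 5 of 7 of the oligosaccharyltransferase, 6 of 12 of the ALG steps and 5 of 11 of supply kept their order in 6 of 6 libraries. Of the pairs that had kept their order in 6 of 6 on the deposited lengths, 3 turned in all 6 libraries: DHDDS and DPM1, DPAGT1 and ALG8, and ALG10 and ALG5, with ALG8 at 11.5 FPKM against 8.20 FPKM for DPAGT1.

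Ratios within pairs of related enzymes were compared next, since a ratio inside a library does not depend on its depth. The ratio of STT3A to STT3B was 1.52 ± 0.150 in siGFPT2 libraries and 1.61 ± 0.194 in siNC libraries, and that of TUSC3 to MAGT1 was 1.18 ± 0.196 in siGFPT2 libraries and 1.29 ± 0.178 in siNC libraries (SD, n = 3 each). UGGT1 exceeded UGGT2 by 4.02 ± 0.507 times in siGFPT2 libraries and by 4.47 ± 0.296 times in siNC libraries. MGAT4B exceeded MGAT4A by 281 ± 62.0 times in siGFPT2 libraries and by 290 ± 55.6 times in siNC libraries, on 46 to 56 fragments of MGAT4A. MAN1A2 to MAN1A1 stood at 1.16 ± 0.113 in siGFPT2 libraries and 1.17 ± 0.107 in siNC libraries, MAN2A2 to MAN2A1 at 1.18 ± 0.114 in siGFPT2 libraries and 1.31 ± 0.273 in siNC libraries, and GMPPA to GMPPB at 1.33 ± 0.0512 in siGFPT2 libraries and 1.29 ± 0.132 in siNC libraries. In every pair the first-named gene was the higher in all 6 libraries on the deposited lengths; with the GENCODE lengths TUSC3 was the higher in 4 of 6, with ratios to MAGT1 from 0.922 to 1.31, and the other 6 pairs kept their order in all 6. None of the 7 ratios differed beyond the spread between libraries: exact two-sided permutation p-values ran from 0.3 to 0.8, or 0.7 to 0.8 after Benjamini-Hochberg adjustment over the 7 pairs. The smallest p this design allows is 0.1.

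**Figure D4:**
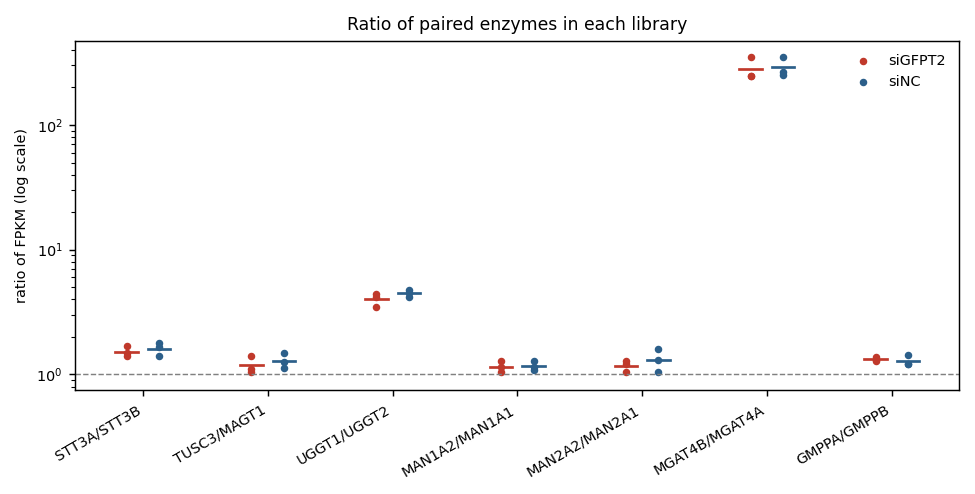
Ratio of FPKM within 7 pairs of related enzymes in each library, on a log axis; red points are siGFPT2 libraries, left of the blue siNC libraries, short bars are group means and the dashed line marks a ratio of 1. The groups overlap in every pair, and MGAT4B stands 281 times (siGFPT2 mean) and 290 times (siNC mean) above MGAT4A.

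The libraries that stand apart were often at the same end of a gene's range, in these genes as in the table at large. Library siNC replicate 3 held the highest value of the 6 for 12 of the 43 genes and the lowest for 18. The libraries siGFPT2 replicate 2 and siNC replicate 3 were the highest pair of the 6 for 14 of the 43 genes: DOLK, PMM2, GMPPA, DPM2, DPM3, MPDU1, ALG1, ALG3, RPN1, RPN2, DDOST, DAD1, PRKCSH and MGAT4B. They were the lowest pair for 12: NUS1, ALG12, STT3B, GANAB, UGGT1, MAN1A1, MAN1A2, MAN2A1, MAN2A2, MGAT5, FUT8 and B4GALT1. Over all features they were the highest pair for 29.8% and the lowest pair for 35.4%, so neither count sets these genes apart. The median exon length in GENCODE 29 was 3367 bases for the 14 genes and 6025 bases for the 12. The small membrane subunits DAD1 and DPM3 thus read high, and the large enzymes UGGT1 and the Golgi mannosidases low, in the same libraries of both labels. The median deviation of the trimming genes from their 6-library means was -0.20 in siGFPT2 replicate 2 and -0.43 in siNC replicate 3 on the log2 scale, against 0.17 and 0.15 in siGFPT2 replicates 1 and 3 and 0.06 and 0.24 in siNC replicates 1 and 2. The share of fragments on mitochondrially encoded genes lay between 7.88% and 8.75% in all libraries. The part of gene length in any difference between the labels was not tested beyond the covariate fit given for DPM3.

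**Figure D5:**
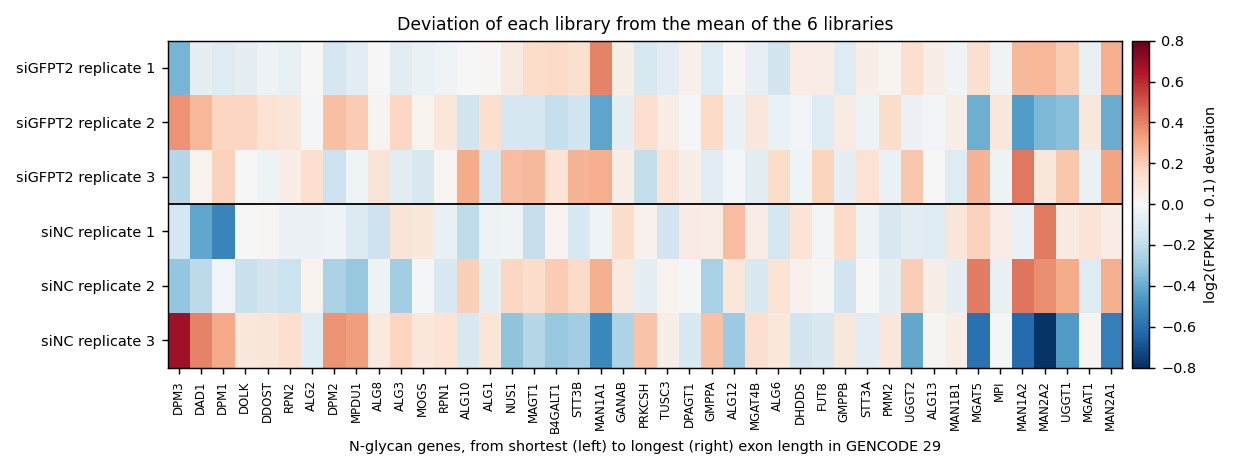
Deviation of each library (rows, the 3 siGFPT2 libraries above the 3 siNC libraries) from the mean of the 6 libraries on the log2(FPKM + 0.1) scale for the 43 genes tested, ordered from the shortest exon length at the left to the longest at the right. In siGFPT2 replicate 2 and siNC replicate 3 short genes tend to be red (high) and long genes blue (low), with correlations of -0.62 and -0.67 with log2 length. Exceptions include the long genes MGAT1 and MAN1B1, above 0 in both libraries, and the short gene ALG2, below 0 in both.

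A wider list of 36 genes around the pathway was read in the same fit: dolichol recycling, other oligosaccharyltransferase subunits, ER lectins and glycan-dependent degradation, other Golgi branching enzymes, galactosyltransferases, and sugar nucleotide transport. Of the 36, 30 were tested and 0 passed, at an adjusted or an unadjusted p of 0.05; 18 log2 fold changes lay above 0 and 12 below, with a median of 0.03. The smallest p belonged to ERLEC1, an ER lectin of the degradation route. ERLEC1 read 16.0, 15.2 and 17.0 FPKM in siGFPT2 libraries, against 12.0, 15.3 and 14.5 FPKM in siNC libraries, a log2 fold change of 0.21 with an interval of -0.09 to 0.51 (limma adjusted p = 0.9999). OSTC, a subunit of the STT3A form of the enzyme, was also highest in siNC replicate 3 and lowest in siNC replicate 1, with 15.8, 18.1 and 18.8 FPKM in siGFPT2 libraries, against 11.2, 14.9 and 21.1 FPKM in siNC libraries. Its log2 fold change was 0.20 with an interval of -0.35 to 0.75. Without siNC replicate 3 it was 0.43 with an interval of 0.07 to 0.80 (limma adjusted p = 0.810). In that fit 421 of the 520 features under an unadjusted p of 0.05 were higher in siGFPT2.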

How the data were processed

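The deposited values are FPKM per gene and library, made by the authors; HISAT2, featureCounts and DESeq2 were used per the submitters' processing notes, with genome build, annotation and versions not given in the sources used here. The members and lists were chosen with earlier results of these data known. Symbols, coordinates and exon lengths came from a gene name table and GENCODE 29 (GRCh38), and promoters from RefSeq.

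The main fit used limma 3.58.1 in R 4.3.3 (lmFit, eBayes with trend; two-sided; only group as a term) on log2(FPKM + 0.1), which understates changes of low genes. The 12896 features whose mean reached 1 FPKM were kept, with Benjamini-Hochberg adjustment over all of them and a threshold of 0.05. The script was tested on simulated data. All 51 members were to be named. Values per library were to be given for the highest and lowest level and fold change of each role, for 7 pairs of related enzymes and for the 2 other pathway genes with the smallest p, of which 1 is not reported here; further members were added for their role.

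FPKM steps gave counted fragments and gene lengths: 36980 of 36981 features above 0 came out whole within 0.0001 fragments, where the GENCODE 29 length was used if it gave whole fragments and otherwise the smallest length that did, so this is partly built in. Alternatives covered pseudocount, filter, scaling, replicate block, limma-voom, a length covariate and libraries left out; the GENCODE length for levels was added after seeing the data. Python 3.11.15 was used for summaries.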

Additional observations from a re-analysis of the deposited data

How the results depend on the processing

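In none of 16 alternatives did a feature, one of the 51 genes or one of the 36 other pathway genes pass an adjusted p of 0.05, and the smallest adjusted p of any of the 51 was 0.694. At an unadjusted p of 0.05 the alternatives called between 16 and 754 features, against 84 of 12896 (0.651%) in the reported fit. These counts do not share a base where the filter changed. With no filter on low values 754 of 36981 features were called, and with a minimum mean of 5 FPKM 16 of a smaller set. Over the same 12896 features, 704 (5.46%) were called with the length covariate. Without siNC replicate 3 and siGFPT2 replicate 2 there were 751 (5.82%). With 1 library left out there were 50 to 520 (at most 4.03%). The median log2 fold change of the genes stayed between -0.0040 and 0.05; it was -0.0040 with each library centred on its median feature, where 18 genes lay above 0 and 25 below, against 30 and 13 in the reported fit and 25 and 18 with quantile normalization. The sign of 31 of the 43 genes changed in at least 1 alternative, and 12 kept theirs in every alternative that tested them (ALG2, ALG8, FUT8, GMPPB, MAGT1, MAN1B1, MOGS, PMM2, PRKCSH, STT3A, STT3B and UGGT2), each with an adjusted p above the threshold throughout. With the exon length of GENCODE 29, chosen after seeing the data, the median level was 8.20 FPKM over the 51 genes, 12.3 FPKM for supply and 3.29 FPKM for the ALG steps. Replicate numbers did not pair the libraries (correlations of same-numbered deviations 0.47, -0.72 and -0.57), and the replicate block called 0 features, with 63 under an unadjusted p of 0.05. Limma-voom on the recovered fragments called 0 features, with 60 under 0.05. Where a library was left out, the 2 that remained in its group were assumed to vary like the other group. Genes under 1 FPKM rested on 13 to 260 fragments a library.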

Other observations

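Promoters of the 43 genes found in RefSeq (300 bases each) were searched for further motifs, and the shares are a description with no test. CGGAAG, the core bound by ETS factors, was found on either strand in 62.8% of them, against 39.7% of the promoters of tested features and 19.5% of all promoters. CACGTG was found in 18.6%, namely in ALG1, ALG3, DDOST, DHDDS, DOLK, GMPPA, NUS1 and SRD5A3, against 12.8% of tested features and 7.26% of all promoters. CCAAT stood in 55.8% of them, against 43.3% of tested features and 34.6% of all promoters. GGGCGG was in 79.1%, against 78.4% of tested features and 45.0% of all promoters. TATAAA was in the promoters of ALG3 and DPM1 only, or 4.65%, against 7.69% of tested features and 11.5% of all promoters. The median GC content was 61.3% for the 43 promoters, against 65.0% for tested features and 58.7% for all promoters, and its part in these shares was not tested.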
